A study of Mus musculus with 8 samples.

Results

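Nxf3 and 8 general mRNA export factor genes (Nxf1, Nxt1, Nxt2, Alyref, Ddx39b, Thoc1, Thoc2 and Thoc5) were followed in mouse hepatoma cells exposed to hexavalent chromium, Cr(VI). They are 9 of the 23403 genes in the count table. Nxf3 was chosen by its measured counts, because it fell most consistently between treated and control cells, so its values in this comparison are a description and carry no test. The other 8 were named for what they do.

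The study examined how Cr(VI) changes chromatin and transcripts in Hepa-1c1c7 (Hepa-1) cells, a cloned mouse hepatoma line. Among the 8 samples, RNA-seq of poly(A) RNA covered 2 libraries of cells given 25 µM CrK2O4 for 90 minutes and 2 libraries of control cells without chromium, whose labels do not say to which exposure regimen they belong. The study also profiled RNA of long-term treated cells, but no such library is among the 8 samples. FAIRE-seq, which recovers DNA that is not crosslinked to protein, covered 1 library of each of 4 conditions: the same acute dose, its control, long-term growth over 20 passages with chromium at 0.5 µM, and a control carried through as many passages without it. All groups share the same line and growth medium. Nothing in the labels says that RNA libraries of a group came from separate cultures, so the p-values measure only the spread between these libraries, which may be technical. The libraries hold the RNA of whole cultures, so a change in the mix of cells and a change in RNA per cell cannot be told apart. Counts summed to 33303645 and 37696116 in the controls and to 32877791 and 32319676 in the treated libraries.

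mRNA leaves the nucleus as a particle of RNA and protein. During transcription and splicing the TREX complex, built from THO subunits, the helicase Ddx39b and adaptors such as Alyref, is loaded onto the transcript and passes it to a dimer of Nxf1 and Nxt1, which carries it through the nuclear pore. Nxf3 is a relative of Nxf1 that is known mainly from the testis, and the human protein is known to leave the nucleus through the export receptor CRM1.

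The 2 treated libraries differed from each other more than the 2 controls did, before any gene was considered. The TMM factor, which scales a library for its composition, was 0.897 in the second treated library. It was 1.03 in the first treated library and 1.04 and 1.04 in the controls. The other measures below compare libraries within a pair and do not say which of them departs. Across 13619 tested genes, log2 CPM (CPM, the counts of a gene scaled to a common TMM-adjusted library total) correlated at 0.974 between the treated libraries and at 0.997 between the controls, and 1404 against 83 genes differed more than 2-fold within the pair. The difference within the treated pair went with transcript length: the median log2 difference of the second from the first was 0.31 for 2136 genes with a longest transcript under 1500 bp and −0.29 for 2353 genes over 6000 bp, while the controls gave 0.03 and −0.03. The Spearman correlation with transcript length was −0.317 for the difference within the treated pair, −0.196 for that within the control pair and −0.141 for the change from control to treated cells. Log2 fold changes below that turn or move by over 1.5 times are therefore followed by the values without the first and without the second treated library, in this order. The part of the difference between the treated libraries in them was not tested.

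Nxf3 (GeneID 245610) lies on the minus strand of chromosome X between bases 136071523 and 136139579 of mm10. RefSeq gives it 9 transcripts from 5 start positions, of which 4 lie within 239 bp and the other, a predicted start, lies 54.3 kb upstream of the curated start. In control cells it had 2478 and 2851 counts, and in treated cells 72 and 60 counts. These were 71.3 and 72.9 CPM in the controls and 2.13 and 2.07 CPM after 25 µM Cr(VI). Both treated libraries lay far below both controls, and the libraries within each group were nearly equal, the second treated library included. The mean level in treated cells was 2.91% of that in control cells, which is 34.3-fold lower, with a log2 fold change of −5.10 (SE 0.14, edgeR). Leaving out each library in turn gave values from −5.12 to −5.08. The treated cells had 90 minutes of exposure, and the control labels do not say to which exposure regimen they belong. Whether the difference in Nxf3 arose within that time or already lay between the cultures was not tested.

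Genes on the opposite strand overlap the annotated body of Nxf3, and the RNA kit used does not mark strand. Their own counts were small beside those of Nxf3: Bex4 had 2 and 1 counts in the controls and 9 and 6 in the treated libraries, and 5730412P04Rik had 0 counts in every library. How the counting treated such overlaps is not given in the sources used here. The exons of Nxf3 hold 3006 different stretches of 50 bp, about the length of a read, and none of them occurs in an exon of Nxf1, Nxf2 or Nxf7, so these relatives share no such stretch within exons.

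**Figure D1:**
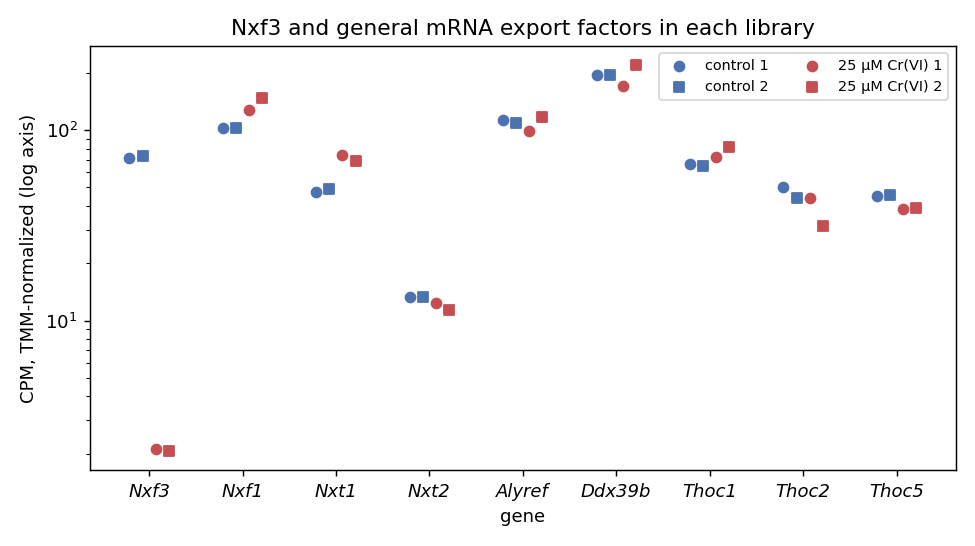
TMM-normalized CPM of the 9 genes in each of the 4 RNA libraries on a log axis (circles, first library; squares, second library; blue, control; red, 25 µM Cr(VI) for 90 minutes). Nxf3 drops from 71.3 and 72.9 to 2.13 and 2.07 CPM, and the treated means of the 8 general factors lie between 0.801 (Thoc2) and 1.48 times (Nxt1) their control means.

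Nxf1, the main carrier of mRNA through the pore, did not move down with its relative. It lies on chromosome 19 from 8757103 to 8770910 and had 103 and 103 CPM in the controls and 127 and 147 CPM in the treated libraries. Both treated libraries were above both controls, by a log2 fold change of 0.42 (SE 0.12), but edgeR's adjusted p was 0.114. The estimate was 0.54 without the first and 0.31 without the second treated library. Of the other family genes on the X chromosome, Nxf2 had 0 counts in every library, which allows up to 0.104 CPM in the shallowest after scaling, for counting error only. Nxf7 had 13 and 19 counts in the controls and 7 and 10 in the treated libraries, too few to weigh a log2 fold change of −0.65 (SE 0.43; −0.30 and −1.06 with a treated library left out), and it passed the filter on low counts only through the controls.

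Set per kilobase of exon, Nxf3 and Nxf1 were at levels of the same order in untreated cells. That of Nxf3 was 0.690 and 0.706 times that of Nxf1 in the controls and 0.0166 and 0.0141 times in the treated libraries. As a share of the summed level per kilobase of Nxf1, Nxf2, Nxf3 and Nxf7, it took 40.7% and 41.2% in the controls and 1.63% and 1.38% after Cr(VI). The ratio to Nxf1 depends a little on the length used, with a control mean of 0.698 by the union of exons and 0.727 by the longest transcript.

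Nxt1, the small partner that binds Nxf1, came closest to a call among the general factors. On chromosome 2 from 148672615 to 148676026, it had 47.5 and 49.1 CPM in the controls and 74.1 and 68.6 CPM in the treated libraries. Each treated library exceeded each control, and the mean was 1.48-fold higher. The log2 fold change was 0.56 (SE 0.11), with an adjusted p of 0.0646 in edgeR and of 0.0360 in DESeq2. Nxt2, its X-linked relative, had 13.3 and 13.3 CPM in the controls and 12.4 and 11.4 CPM in the treated libraries. Its treated values were just below the controls, with a log2 fold change of −0.16 (SE 0.15, edgeR adjusted p = 0.507; −0.20 and −0.11 with a treated library left out). Per kilobase, Nxt1 stood at 10.1 and 10.4 times Nxt2 in the controls and at 16.9 and 17.0 times in the treated libraries.

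Among the TREX proteins, Ddx39b, the RNA helicase that loads Alyref, and Alyref, the adaptor that hands mRNA to Nxf1, had treated values on both sides of the controls. Ddx39b, on chromosome 17 from 35241746 to 35253707, had 194 and 195 CPM in the controls and 171 and 219 CPM in the treated libraries. Alyref, on chromosome 11 from 120594504 to 120598399, had 113 and 109.5 CPM against 98.4 and 118 CPM. For both genes the second treated library was above and the first below every control. Their log2 fold changes were 0.00 (95% interval −0.42 to 0.43) and −0.04 (−0.39 to 0.31), so these libraries do not exclude moderate shifts in either direction, and with a treated library left out the values were 0.19 and −0.19 for Ddx39b and 0.11 and −0.18 for Alyref.

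The THO subunits Thoc1, Thoc2 and Thoc5 form the core that TREX is assembled on. Thoc1, on chromosome 18 from 9958180 to 9995484, had 66.6 and 64.9 CPM in the controls and 71.8 and 81.5 CPM in the treated libraries, and its log2 fold change was 0.22 (SE 0.12, edgeR adjusted p = 0.272; 0.34 and 0.13 with a treated library left out). Thoc5, on chromosome 11 from 4895283 to 4928867, had 45.1 and 45.8 CPM against 38.6 and 38.9 CPM, a log2 fold change of −0.23 (SE 0.11, edgeR adjusted p = 0.229). For both, the treated libraries lay on the same side of the controls, higher for Thoc1 and lower for Thoc5. Thoc2, on chromosome X from 41794992 to 41911937, had 50.0 and 43.85 CPM in the controls and 43.82 and 31.4 CPM in the treated libraries. Only the second treated library lay clearly below the controls, and the log2 fold change of −0.32 (SE 0.20, edgeR adjusted p = 0.346) became −0.10 without that library and −0.55 without the other.

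Among the 8 general factors, edgeR's quasi-likelihood test called 0 at an adjusted p under 0.05, where it called 4.63% of all tested genes (1.78% higher and 2.85% lower). At an unadjusted p under 0.05 there were 2, Nxf1 and Nxt1, where 30.7% of all tested genes were, and DESeq2 called 1, Nxt1, where it called 15.2% of all genes. Both treated libraries lay above both controls for 3 factors and below for 3, and the groups overlapped for 2; over all tested genes those shares were 32.2% above and 34.0% below. The median log2 fold change of the 8 was −0.020, and that of all tested genes was −0.0047. The median of the 8 was 0.15 without the first and −0.10 without the second treated library.

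With a treated library left out, the fit takes the spread of the lone treated library from the controls, and it then called 7 of the 8 factors without the first and 6 without the second, where it called 78.3% and 68.3% of all tested genes. With either treated library left out, 6 of the 8 kept their direction, and Alyref and Ddx39b did not.

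In the order of levels per kilobase of exon, Ddx39b led the 9 genes in the controls with 111 ± 0.291 CPM per kilobase (SD, n = 2), followed by Alyref with 86.1 ± 1.74 and Nxt1 with 43.9 ± 1.00. Nxf1 came next with 25.4 ± 0.0070, then Thoc5 with 19.5 ± 0.215, Nxf3 with 17.7 ± 0.286 and Thoc1 with 16.6 ± 0.289. Thoc2 with 5.49 ± 0.511 and Nxt2 with 4.29 ± 0.00181 closed the order, and no neighbours in it overlapped between libraries. After Cr(VI), Nxf3 was the lowest of the 9 with 0.516 ± 0.00984 CPM per kilobase. The others kept their order except that Thoc1, with 19.3 ± 1.73, stood above Thoc5, with 16.6 ± 0.0919. Thoc2 and Nxt2, with 4.40 ± 1.03 and 3.83 ± 0.226, overlapped in the treated libraries and do not differ beyond their spread.

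**Figure D2:**
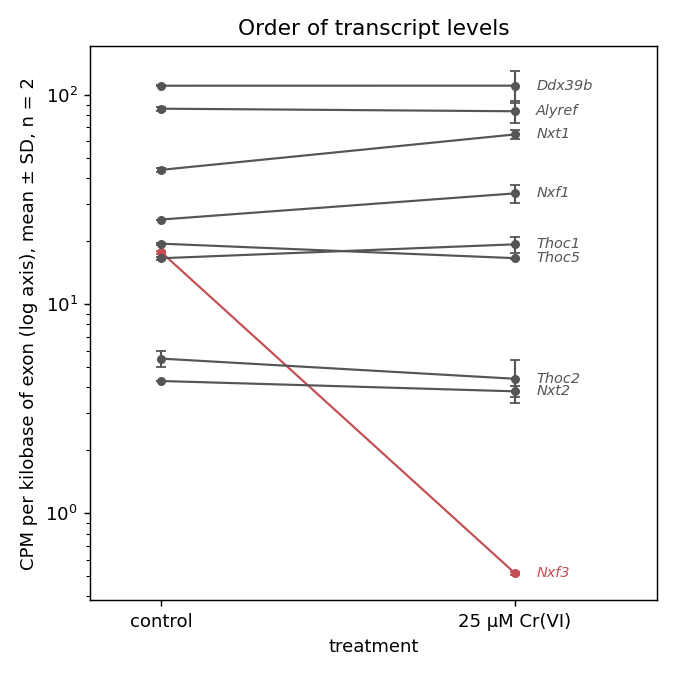
Mean level of each of the 9 genes per kilobase of exon (CPM per kilobase, log axis; bars, SD of 2 libraries) in control cells and after 25 µM Cr(VI). Nxf3 goes from 17.7, between Thoc5 and Thoc1, to 0.516, below Nxt2.

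Nxf3 was next set beside 65 further genes of mRNA export and its neighbouring pathways, of which 63 passed the filter on low counts, Nxf7 only through the controls. The edgeR test called 0 of the 63 at an adjusted p under 0.05, 12 had an unadjusted p under 0.05, and DESeq2 called 5, where the shares of all tested genes were 4.63%, 30.7% and 15.2%. Both treated libraries lay above both controls for 17 genes and below for 24, where the shares of all tested genes were 32.2% and 34.0%. The lowest log2 fold change among them was −0.79 and the highest 1.28, around a median of −0.08, and Nxf3 at −5.10 lay outside that range. The median was 0.03 without the first treated library and −0.07 without the second.

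The 11 other TREX genes and adaptors had a median log2 fold change of 0.08, with 0.16 without the first and 0.03 without the second treated library. Thoc6, a THO subunit, had their highest value, with 18.8 and 19.7 CPM in the controls and 23.0 and 70.4 CPM in the treated libraries. The log2 fold change of 1.28 rests on the second treated library (1.89 and 0.25 with a treated library left out), and the adjusted p was 0.203 in edgeR and 0.0261 in DESeq2. The lowest was Alyref2, a close copy of Alyref, with a log2 fold change of −0.18 (SE 0.24; −0.36 and 0.00 with a treated library left out). Its exons share 10 of the 948 stretches of 50 bp in those of Alyref, so the counts of both are uncertain to the extent that such reads were split. Poldip3 and Zc3h11a, adaptors named here after their values were seen, had log2 fold changes of 0.79 and 0.58 with adjusted p of 0.0526 and 0.0958 in edgeR, and both passed in DESeq2.

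Among 6 genes of TREX-2, which tethers active genes to the pore, the median log2 fold change was −0.10, with 0.06 without the first and −0.19 without the second treated library. Sem1 was the highest with 0.39 (SE 0.23; 0.69 and 0.06 with a treated library left out) and Cetn3 the lowest with −0.41 (SE 0.13). For 9 tested genes of the cap-binding complex, the exon junction complex and the poly(A) tail, the median was 0.12, with 0.21 without the first and −0.07 without the second treated library. Eif4a3, the helicase of the exon junction complex, was the highest with 0.41 (SE 0.18; 0.63 and 0.17 with a treated library left out), and Ncbp1, the large cap-binding subunit, was the lowest with −0.31 (SE 0.10). Of 7 SR proteins and other adaptors, Ythdc1, a nuclear reader of methylated adenosine, was the highest. It had 59.0 and 56.3 CPM in the controls and 87.8 and 110.3 CPM in the treated libraries, a log2 fold change of 0.78 (SE 0.15) with an adjusted p of 0.0637 in edgeR and 0.00626 in DESeq2. Rbm15b was the lowest with −0.41 (SE 0.30; −0.85 and −0.05 with a treated library left out). The median of these 7 was 0.30, with 0.30 without the first and −0.05 without the second treated library.

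At the pore, 21 nucleoporins and release factors had a median log2 fold change of −0.11, with −0.22 without the first and −0.05 without the second treated library. Of the 21, 15 were below 0, as were 50.4% of all tested genes. Nup58, an FG nucleoporin listed in RefSeq as Nupl1, was the lowest, with 54.6 and 51.6 CPM in the controls and 37.8 and 23.7 CPM in the treated libraries. Its treated values lay below both controls, by a log2 fold change of −0.79 (−1.13 and −0.49 with a treated library left out), and the adjusted p was 0.131 in edgeR and 0.0385 in DESeq2. Nup50 was the highest with a log2 fold change of 0.56 (SE 0.17, edgeR adjusted p = 0.121; 0.78 and 0.34 with a treated library left out). The 8 tested genes of the CRM1 and Ran system, apart from Nxt1, had a median of −0.12, with 0.10 without the first and −0.24 without the second treated library. They lay between Xpo5 with −0.41 (SE 0.19; −0.66 and −0.19 with a treated library left out) and Ranbp3 with 0.34 (SE 0.13; 0.48 and 0.20). Xpo1, which encodes CRM1 and is named here after its value was seen, had 266 and 267 CPM in the controls and 224 and 193 CPM in the treated libraries (log2 fold change −0.35, SE 0.13, edgeR adjusted p = 0.161).

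**Figure D3:**
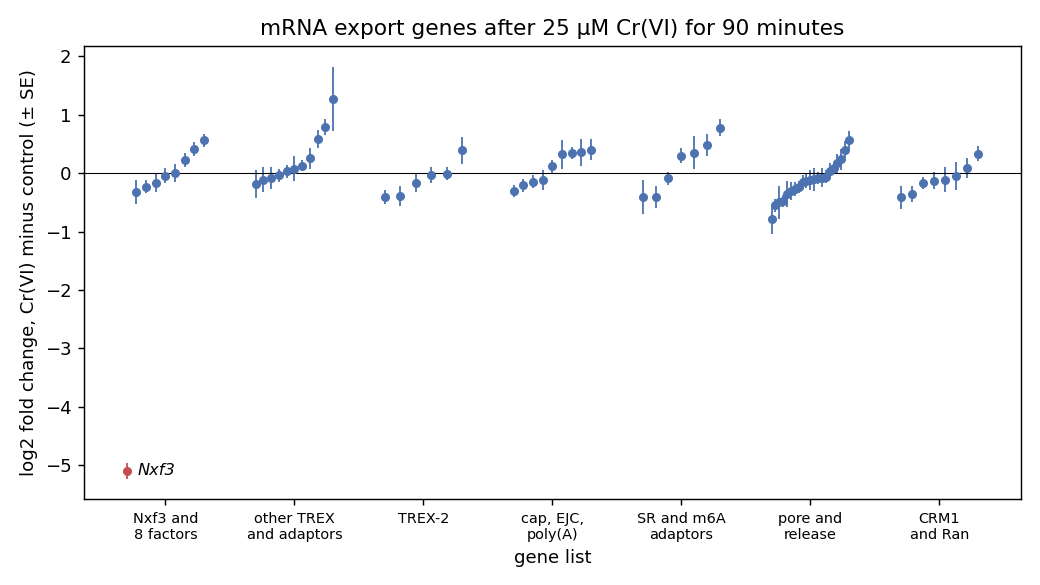
Log2 fold change of treated minus control cells (points; bars, SE from edgeR) for the 9 genes and for each list of other tested export genes, sorted within a list. Nxf3 stands alone at −5.10, and all other points lie between −0.79 and 1.28.

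None of the tested genes around Nxf3 on the X chromosome was called lower. Within 500 kb of its annotated body lie 23 other genes of the count table, of which 12 were tested, but Bex1 passed the filter on low counts only through the treated libraries and Nxf7 only through the controls. Of the other 10, edgeR called 1 higher, Tceal9, and 0 lower, where it called 1.66% higher and 2.60% lower of all genes that passed the filter in both groups. DESeq2 called 3, Tceal9, Bex3 and Tceal3, where it called 14.8% of those genes. Tceal9, a small gene of the TCEAL family 160 kb away, had 441 and 441 CPM in the controls and 924 and 815 CPM in the treated libraries, so the treated libraries were higher by a log2 fold change of 0.98 (SE 0.15, edgeR adjusted p = 0.0467). Bex1, 130 kb away, had 1 and 2 counts in the controls and 72 and 50 in the treated libraries. The ratio of summed, scaled counts was 47.8. A gene that passes the filter only through its higher group had to differ, so no test of Bex1 is given.

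Bex3, Tceal3, Tceal5 and Bex2 had log2 fold changes of 0.67, 0.76, 0.60 and 0.37, with both treated libraries above both controls. For Tceal8, Gprasp2 and Gprasp1 the groups overlapped, with log2 fold changes of 0.33 (−0.08 and 0.66 with a treated library left out), 0.33 (0.05 and 0.58) and 0.10 (−0.22 and 0.37). Those below 0 were Armcx5 with −0.10, Nxf7 with −0.65 and Tcp11x2 with −1.28 (SE 0.26, edgeR adjusted p = 0.0700). The lowest, Tcp11x2, had 3.28 and 2.79 CPM in the controls and 1.12 and 1.38 CPM in the treated libraries.

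**Figure D4:**
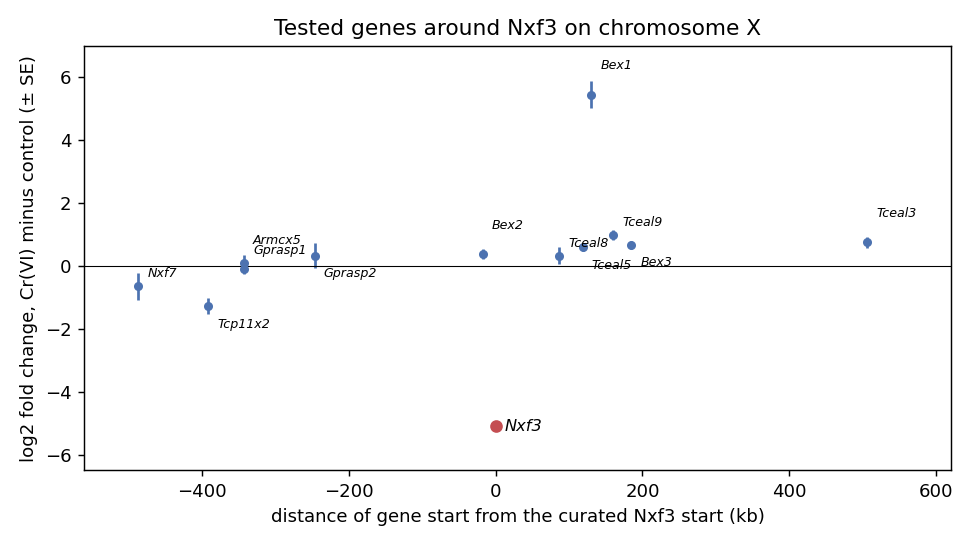
Log2 fold change of treated minus control cells (points; bars, SE from edgeR) for the 12 tested genes within 500 kb of the Nxf3 body, against the distance of each gene's start from the curated start of Nxf3 in kb. Nxf3 lies at −5.10 and Bex1, 130 kb away, which passed the filter only through the treated libraries, at 5.45.

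Likeness to Nxf3 was measured over the 4 libraries, as the Euclidean distance between log2 CPM values centred on each gene's mean. The nearest genes were Dhrs9, Sele, Kantr, Mal and Col5a2, at distances of 0.353, 0.566, 0.845, 0.878 and 0.908. By the difference of log2 fold changes instead, 1 of these 5 stayed among the nearest 5. Dhrs9, a retinol dehydrogenase, had 287 and 359 counts in the controls and 7 and 4 in the treated libraries. Col5a2, a fibrillar collagen chain, had 701 and 802 counts against 36 and 32. Sele had 150 and 161 against 5 and 3, Kantr 79 and 86 against 2 and 2, and Mal 94 and 86 against 0 and 2. Each of the 5 lay below both controls in both treated libraries, as the measure of likeness requires, and each had fewer counts than Nxf3. Dhrs9, Sele, Kantr and Mal passed the filter on low counts only through the controls, and Col5a2 passed it in both groups.

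FAIRE peaks opened by Cr(VI), a readout that did not enter the choice of Nxf3, were set beside the 9 genes. The lists used here hold 2945 peaks after 25 µM Cr(VI) and 860 peaks after 0.5 µM Cr(VI), with 1 library for each condition, so there is no replicate check. Regions closed by Cr(VI), and any opened peak outside these lists, were not analysed here. No peak of either list overlapped the body of any of the 9 genes or had its centre within 10 kb of an annotated start of them. Over all tested genes, 6.10% had an acute peak and 2.31% a long-term peak within 10 kb of a start. No such share is given here for gene bodies. For Nxf3 the nearest peak centre lay 880 kb away in the acute list and 7343 kb away in the long-term list. Among the 9 genes the median distance was 328 kb in the acute list, against 173 kb over all tested genes. In the long-term list it was 1254 kb against 765 kb. In the acute list, 1 of the 9, Nxt1, had a peak within 100 kb, at 33.9 kb, where 34.6% of all tested genes had such a peak. In the long-term list 0 of the 9 had one, where 11.4% of all tested genes did. Whether 9 genes differ from all genes in this was not tested.

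Among the 65 further export genes, 2 had a peak of the acute list within 10 kb of a start, both named after the peaks were seen: Luzp4, an X-linked adaptor, at 4.21 kb, and the nucleoporin gene Nup35, at 6.14 kb. These and the peak nearest Nxt1 are printed from the mm10 genome (RefSeq GRCm38.p6, plus strand), as the acute peaks within 10 kb of a start of these 65 genes or within 100 kb of a start of the 9. The Nxt1 peak, with a score of 57.2, lies in an intron of Napb, the Luzp4 peak, with a score of 69.5, in an intron of Luzp4, and the Nup35 peak, with a score of 59.6, between genes.
Nxt1, chr2:148706422-148706659: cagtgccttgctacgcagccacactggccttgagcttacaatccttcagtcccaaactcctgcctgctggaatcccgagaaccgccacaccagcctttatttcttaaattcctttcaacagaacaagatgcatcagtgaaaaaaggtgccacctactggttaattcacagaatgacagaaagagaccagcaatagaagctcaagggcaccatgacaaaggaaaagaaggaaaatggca
Luzp4, chrX:148861839-148861961: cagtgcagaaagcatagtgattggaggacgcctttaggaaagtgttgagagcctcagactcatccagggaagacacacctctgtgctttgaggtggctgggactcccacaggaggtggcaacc
Nup35, chr2:80632620-80632727: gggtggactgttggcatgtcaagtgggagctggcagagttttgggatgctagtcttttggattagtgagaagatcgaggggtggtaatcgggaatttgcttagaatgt
The AP-1 sequence TGANTCA, which reads the same on both strands, was searched in them and would stand in capitals. These letters are in none of the 3 peaks, while 14.4% of all acute peaks hold them.

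Luzp4 and Nup35 did not pass the test in edgeR or DESeq2. Luzp4 had 33.2 and 34.6 CPM in the controls and 42.5 and 29.2 CPM in the treated libraries, which overlap. Nup35 had 58.3 and 57.5 CPM in the controls and 55.8 and 48.8 CPM in the treated libraries, which lay below the controls (log2 fold change −0.15, SE 0.12, edgeR adjusted p = 0.459; −0.22 and −0.06 with a treated library left out). In the long-term list, Eny2 and Nup35, also named after the peaks were seen, had a peak within 10 kb, at 6.42 and 7.26 kb. The Eny2 peak holds TGANTCA at 1 place and the Nup35 peak at 0, and 29.1% of all long-term peaks hold it. No RNA library of long-term treated cells is among the 8 samples, so no expression value stands beside those peaks. RefSeq promoter sequences were matched for 7 of the 9 genes, all but Nxf3 and Thoc1, and TGANTCA occurs in none of the matched promoters, where 7.81% of all promoters of this length hold it.

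The hepatoma label was checked with markers of liver and other cell types, since Nxf3 has its known home in the testis. Of 10 hepatocyte markers 8 were tested, 1 of them, Hnf4a, named after its values were seen, only through the treated libraries. Of the other 7, edgeR called 3 higher and 0 lower, where it called 1.66% higher and 2.60% lower of all genes that passed the filter in both groups, a share that also stands beside the lists that follow. The summed level of all 10 hepatocyte markers was 2153 and 2215 CPM in the controls and 5252 and 5829 CPM in the treated libraries. Trf, the most abundant in the controls, had 1094 and 1111 CPM in the controls and 1432 and 2075 CPM in the treated libraries. Trf was not called (log2 fold change 0.67, edgeR adjusted p = 0.157, and 0.94 and 0.38 with a treated library left out). Alb, the most abundant after Cr(VI), had 904 and 947 CPM in the controls and 3665 and 3548 CPM in the treated libraries. Alb was called higher (edgeR adjusted p = 0.0317). The groups overlapped for 2 of the 7, as for 4345 of all 12638 genes that passed the filter in both groups. The 2 were Afp and Serpina1a, named after their values were seen, with log2 fold changes of 0.03 (0.27 and −0.21 with a treated library left out) and 0.004 (0.04 and −0.001). Of 6 germ cell markers 1 was tested and 0 called. Their summed level was 2.56 and 2.71 CPM in the controls and 2.72 and 3.38 CPM in the treated libraries, nearly all from Sycp3.

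Other cell types were also looked for. Fibroblast markers summed to 652 and 662 CPM in the controls and 1204 and 1369 CPM in the treated libraries, nearly all from Dcn and Col1a1, the latter named after its values were seen. Of 3 tested, 1 was called higher and 0 lower. Dcn was the most abundant of the 6, with 436 and 442 CPM in the controls and 959 and 997 CPM in the treated libraries. Pdgfra, named after its values were seen, went the other way, with 12.9 and 12.9 CPM in the controls and 10.8 and 7.80 CPM in the treated libraries, and did not pass the test. Macrophage markers summed to 63.1 and 63.0 CPM in the controls and 44.9 and 63.5 CPM in the treated libraries, with 0 of 3 tested called. Csf1r, the most abundant, had 50.1 and 49.5 CPM in the controls and 37.0 and 37.9 CPM in the treated libraries. Lyz2 and Cd68 were likewise named after their values were seen. Lyz2 had 5.06 and 5.14 CPM against 2.72 and 3.35 CPM, so both treated libraries lay below both controls. Cd68 had 7.76 and 8.28 CPM against 5.08 and 22.1 CPM. Its first treated library lay below and its second above both controls, so it showed no common direction. Endothelial markers summed to 0.776 and 0.793 CPM in the controls and 1.98 and 2.42 CPM in the treated libraries, led by Pecam1, the 1 tested, which was called higher. Emcn and Kdr, also named after their values were seen, had 5 and 4 and 5 and 8 counts in the controls and 2 and 1 and 5 and 3 counts in the treated libraries. The part of these shifts in the Nxf3 result was not tested.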

How the data were processed

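The authors aligned RNA-seq reads to mm10 with TopHat and deposited raw read counts per Entrez gene. The counting tool, its annotation and its use of strand are not given in the sources used here. The peak score is the value the authors deposited from MACS, run at default settings after BWA alignment with 1 treated library against its control, and equals 10 times the negative log10 p. Of 23403 genes, 23305 matched a RefSeq symbol, and 13619 passed filterByExpr and were tested with edgeR 4.0.16 (R 4.3.3; TMM, quasi-likelihood F test, two-sided, Benjamini-Hochberg over all of them). The biological coefficient of variation was 0.193. The fit was also run on simulated counts, drawn with that variation for every gene and without a trend by transcript length. That run does not show how the fit does on these libraries. DESeq2 1.42.0 was an alternative, as were a replicate block, other scalings, no filter and each library left out. Levels per kilobase used the union of RefSeq exons. The members and lists were chosen with earlier results of these data known. Named genes are the 9 members, Nxf2 and Nxf7, genes overlapping Nxf3 or tested within 500 kb, the highest and lowest tested gene of each export list and any called, the 5 genes most like Nxf3 and the most abundant marker of each cell type; other genes are said in the text to be named after their values were seen. Python 3.11.15, pandas 2.3.3 and matplotlib 3.10.9 were used.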

Additional observations from a re-analysis of the deposited data

How the results depend on the processing

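The edgeR test called 631 genes (243 higher, 388 lower), a replicate block 2969 (1397 and 1572), DESeq2 2073 (1057 and 1016), and leaving out a library in turn 284 to 10659, where the higher counts come from fits with 1 treated library. Among the 8 general factors the count of 0 became 1 with the replicate block and 1 with DESeq2, both times Nxt1 (log2 fold change 0.56, adjusted p = 0.0415 in edgeR, and 0.58, adjusted p = 0.0360 in DESeq2), and 0 to 7 with a library left out. For other export genes the count of 0 became 8 with the block, 5 with DESeq2, 1 without a filter (Poldip3) and 0 to 53 with a library left out. The titles' numbers were not taken as pairs, and the labels do not say whether they mark pairs. Same-numbered libraries deviated together with a correlation of 0.09. In both groups the difference of the second from the first library fell with transcript length (Spearman correlation −0.317 treated, −0.196 control). The cause was not tested. The Nxf3 log2 fold change was −5.21 with library size alone, which moved the median of all genes to −0.11, and −5.13 without a filter. Ddx39b was −0.010 with the block, −0.12 with library size alone and −0.030 without a filter. With a library left out, values ran from −5.12 to −5.08 for Nxf3, 0.31 to 0.54 for Nxf1, 0.53 to 0.61 for Nxt1, −0.20 to −0.11 for Nxt2, −0.18 to 0.11 for Alyref, −0.19 to 0.19 for Ddx39b, 0.13 to 0.34 for Thoc1, −0.55 to −0.10 for Thoc2, −0.24 to −0.20 for Thoc5 and −0.10 to 0.15 for the median of the 8. Within 100 kb instead of 10 kb, 1 of the 9 genes had a peak. An alternative chosen after seeing the data left out each treated library. Among the further export genes named in the text, the sign then turned for Luzp4 (−0.19 to 0.32) and Eny2 (−0.086 to 0.090). Among the named neighbours it turned for Gprasp1 (−0.22 to 0.37) and Tceal8 (−0.084 to 0.66).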
